A study of Mus musculus with 15 samples.

Results

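The mitochondrially encoded genes in these data are the 13 protein-coding genes of the mouse mitochondrial chromosome, taken as every row whose gene symbol starts with mt-. They made up 13 of the 31017 gene rows in each of 15 count tables of RNA immunoprecipitation sequencing (RIP-seq), a method that sequences the RNA an antibody brings down. The study examined mice carrying a dominant mutation of Dnmt1, the maintenance DNA methyltransferase, as wild type (WT), heterozygous (Het) and homozygous (Hom) animals, and the allele itself is not named in the labels. Fibroblasts were cell lines grown from the tails of littermates of 1 gender, and the cortex libraries carried only a tissue name. Strain and age were not given, and nothing in the labels ties 2 libraries of a group to separate cultures or animals, so the p-values below measure the spread between libraries, which may be technical.

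The Dnmt1 RIP was made from formaldehyde-crosslinked fibroblasts with a rabbit anti-Dnmt1 antibody and had 2 libraries for each of WT, Het and Hom. The m5C RIP used an antibody against RNA cytosine methylated at carbon 5 on messenger RNA from oligo-dT beads, with 2 WT, 1 Het and 1 Hom library from fibroblasts and 1 library of each genotype from cortex. A single library per tissue is titled input but carries an anti-IgG antibody label and no genotype, and it is called the input here. The protocol names both ribosomal RNA depletion and poly(A) enrichment for the precipitated RNA, and which library had which is not given.

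Mitochondrial DNA is transcribed from both strands as long precursors, which are cut at the transfer RNAs that lie between the coding genes. The messenger RNAs are then given short poly(A) tails inside the organelle, of which mt-Nd6 is known to have little or none, and they are translated by mitochondrial ribosomes into core subunits of the respiratory chain. Of the 13 genes, 7 encode subunits of complex I, the NADH dehydrogenase (mt-Nd1, mt-Nd2, mt-Nd3, mt-Nd4l, mt-Nd4, mt-Nd5 and mt-Nd6). A single one encodes cytochrome b of complex III (mt-Cytb), and 3 encode the core of cytochrome c oxidase, complex IV (mt-Co1, mt-Co2 and mt-Co3). The last 2 encode membrane subunits of ATP synthase (mt-Atp6 and mt-Atp8). The transcripts of fibroblasts and of cortex tissue are measured per library, so fewer cells or fewer mitochondria and less RNA per mitochondrion cannot be told apart.

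Total counts in genes were 217173 to 4913482 per library, and 4 genes outside the mitochondrial genome (Lars2, Gm42418, Gm26917 and Gm10800) held up to 63.5% of a Dnmt1 RIP library (Hom library 1) and 58.4% of the fibroblast input. The library labelled WT m5C RIP 1 from fibroblasts was at or above the Hom library in all 31017 genes, and the Hom counts equalled 74.4% of its total, so results that rest on it are also given without it. Fibroblast markers (9 genes, among them Col1a1 and Pdgfra) summed to 20323 to 29308 CPM (the count of a gene divided by the library's total count in genes and scaled to 1000000) in fibroblast m5C RIP but only 405 to 16018 CPM in Dnmt1 RIP and 830.2 CPM in the fibroblast input, where 6 of 9 were detected. Neuron markers (6 genes) summed to 1101 to 2841 CPM in the Dnmt1 RIP, 594 CPM in the fibroblast input and 293 to 566 CPM in the fibroblast m5C RIP, against 5145 to 5293 CPM in the cortex m5C RIP. The Dnmt1 RIP and fibroblast input libraries thus carried markers of another tissue, and the part of this in the mitochondrial levels was not tested. Fibroblast marker sums of the Dnmt1 RIP also split by genotype, with both Het libraries above all others. In libraries 1 and 2 they were 493 and 1498 CPM (WT), 16018 and 7520 CPM (Het), and 405 and 2237 CPM (Hom).

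In the GENCODE M21 annotation of mm10 the 13 genes lie on chromosome M between the start of mt-Nd1 (2751 to 3707) and the end of mt-Cytb (14145 to 15288). Of these, 12 are written on the plus strand and mt-Nd6 (13552 to 14070) on the minus strand, and each is a single coding exon. The shortest members overlap their neighbours, which bears on how reads can be assigned to them. The mt-Atp8 gene (7766 to 7969) shares 43 bases with mt-Atp6 (7927 to 8607), mt-Nd4l (9877 to 10173) shares 7 bases with mt-Nd4 (10167 to 11544), and mt-Nd5 (11742 to 13565) meets mt-Nd6 tail to tail over 14 bases on opposite strands. These junctions are shown 5′ to 3′ on the strand of the gene named, with the shared bases in capitals, the whole of mt-Atp8 and mt-Nd4l and the last 60 bases of mt-Nd6 (chrM:13552-13611, minus strand).
mt-Atp8: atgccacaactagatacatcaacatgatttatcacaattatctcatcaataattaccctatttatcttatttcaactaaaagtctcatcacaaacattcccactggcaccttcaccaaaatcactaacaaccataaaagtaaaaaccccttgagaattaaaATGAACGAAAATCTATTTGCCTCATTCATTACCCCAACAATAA
mt-Nd4l: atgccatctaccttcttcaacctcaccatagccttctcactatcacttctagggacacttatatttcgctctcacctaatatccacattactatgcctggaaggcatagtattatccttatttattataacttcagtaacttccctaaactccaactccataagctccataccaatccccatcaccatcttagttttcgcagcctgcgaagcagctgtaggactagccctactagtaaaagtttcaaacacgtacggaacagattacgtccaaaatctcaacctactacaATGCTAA
mt-Nd6 end: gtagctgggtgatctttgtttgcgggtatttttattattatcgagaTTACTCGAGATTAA
The capitals of mt-Atp8 and of mt-Nd4l start with the ATG that opens mt-Atp6 and mt-Nd4. The strands also differ in composition, since mt-Nd6 holds 5.97% cytosine and 28.1% guanine while the other 12 genes hold 22.1% to 30.0% cytosine and 5.88% to 16.1% guanine.

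The second property that separates the members is a copy in the nucleus. On chromosome 1 of mm10, chr1:24611535-24616197 on the minus strand, GENCODE M21 annotates 7 pseudogenes (Gm28439, Gm10222, Gm28438, Gm28437, Gm10925, Gm28661 and Gm29216) that repeat the mitochondrial order from mt-Nd4 back to mt-Co1 over 4.663 kb. The copies of mt-Co2, mt-Co3, mt-Atp6 and mt-Nd4l are identical to the mitochondrial genes over all aligned bases, the mt-Nd3 copy differs by 1 base (T3C, counted from the first base of mt-Nd3) at 99.7% identity, and the mt-Nd4 copy is identical over 876 of 1378 bases. The mt-Co1 copy covers 492 bases at 98.8% identity, with its 6 differences (T1056A, C1057T, A1059G, A1060G, C1062A and A1066T, counted from the first base of mt-Co1) within the opening stretch shown here, 60 bases of each from chrM:6381-6440 (plus strand) and chr1:24616138-24616197 (minus strand), with the differing bases in capitals.
mt-Co1: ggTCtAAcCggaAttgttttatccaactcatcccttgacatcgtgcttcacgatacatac
Gm29216: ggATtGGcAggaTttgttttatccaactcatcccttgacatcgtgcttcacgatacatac
As a measure that uses no read counts, the share of each gene's 50-base windows found letter for letter in any annotated nuclear transcript was 100% for mt-Co2, 99.5% for mt-Atp6, 99.9% for mt-Co3, 98.8% for mt-Nd4l and 98.0% for mt-Nd3. It was 62.2% for mt-Nd4 and 51.1% for mt-Co1, 8.19% for mt-Nd2, 7.61% for mt-Nd5 and 0 for mt-Nd1, mt-Nd6, mt-Cytb and mt-Atp8. The first 5 genes are called the copied members below. The measure covers annotated transcripts only, and it is not limited to chromosome 1. In all, 14 nuclear pseudogenes held a window of a member, and 7 of these are the ones on chromosome 1. The others include Gm13339, Gm13340 and Gm13341 on chromosome 2. For mt-Co1 the matched windows reach from base 1 to base 1545, beyond the 492 bases of its chromosome 1 copy. On chromosome 1 the copies of mt-Atp6 and mt-Co2 lie 0.233 kb apart, at the place of mt-Atp8 in the mitochondrial order. None of the 7 pseudogenes fills that gap, and whether it holds a copy of mt-Atp8 was not examined. The sources used here do not say how reads that match more than 1 place in the genome were counted. In 6 of the tables, reads not uniquely placed stand as an entry outside the genes (0.412% to 2.74% of entries). These 6 belong to the fibroblast m5C RIP Het and Hom libraries, the cortex m5C RIP libraries of every genotype and the cortex input. The other tables, from fibroblast m5C RIP WT, the Dnmt1 RIP and the fibroblast input, have no such entry. In fibroblast m5C RIP this difference separates WT from the mutants, and it also runs unevenly across tissues and antibodies. Whether reads were counted differently in the 6 was not tested, nor was any part of this in the comparisons below. The nuclear copies themselves were not analysed here.

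Per kilobase of gene, mt-Co1 and mt-Nd6 were the highest members. The catalytic subunit gene mt-Co1 ranked first in 8 of 15 libraries and mt-Nd6 in the other 7, followed by mt-Nd1 and mt-Cytb (median rank 3 each), mt-Nd5 (5), mt-Nd2 (6) and mt-Nd4 (7). The copied members stood below them at median ranks 8 (mt-Co2), 9 (mt-Atp6), 10 (mt-Co3), 11 (mt-Nd3) and 11 (mt-Nd4l), and mt-Atp8 was last at 13. In CPM per kb, mt-Co1 ran from 713 to 1746 over the 6 Dnmt1 RIP libraries, from 901 to 1554 over the 4 fibroblast m5C RIP libraries and from 2581 to 3539.8 over the 3 cortex m5C RIP libraries. The values of mt-Nd6 in the same 3 sets were 739 to 1899, 1163 to 2461 and 1686 to 3035 CPM per kb. The ranges of mt-Co1 and mt-Nd6 overlapped in every set, but within libraries mt-Nd6 was above mt-Co1 in all 4 fibroblast m5C RIP libraries and mt-Co1 above mt-Nd6 in all 3 cortex m5C RIP libraries. At the other end, mt-Atp8 had 0 to 52.9, 11.99 to 27.0 and 29.9 to 71.8 CPM per kb from no more than 31 counts in any library. Its count was 0 in WT library 1 and Hom library 1 of the Dnmt1 RIP and in the fibroblast input, where 3 counts, the limit that a count of 0 allows, would be 13.8 CPM in the shallowest of them.

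**Figure D1:**
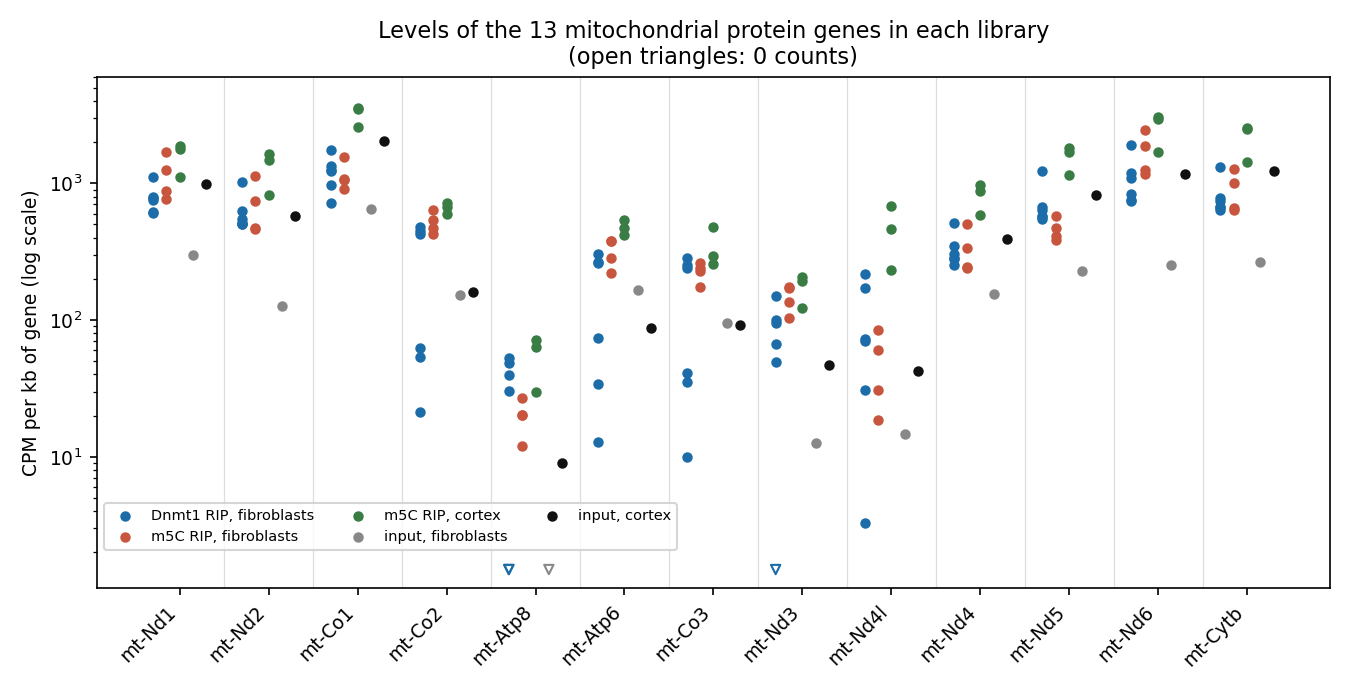
Level of each mitochondrially encoded gene in CPM per kb of gene (log axis), 1 point per library, by antibody and tissue (fb, fibroblast). The copied members mt-Co2, mt-Atp6, mt-Co3, mt-Nd3 and mt-Nd4l lie below mt-Co1 and mt-Nd6, and mt-Atp8 has the lowest median rank, with 0 counts in 3 libraries.

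Together the 13 genes took 0.279% to 1.95% of a library's counts. The share was 1.04% and 0.672% in the WT, 0.613% and 0.718% in the Het and 0.479% and 0.637% in the Hom libraries 1 and 2 of the Dnmt1 RIP. It was 0.567% and 0.833% in WT, 1.02% in Het and 0.621% in Hom fibroblast m5C RIP, and 1.23%, 1.95% and 1.86% in WT, Het and Hom cortex m5C RIP. The inputs stood at 0.279% (fibroblast) and 0.901% (cortex), each below every m5C RIP library of its tissue on this scale. Cortex m5C RIP was thus the set with the highest shares on this scale, above all fibroblast libraries. These shares move with the 4 dominant genes. With those removed from the total, Hom library 1 of the Dnmt1 RIP went from 0.479% to 1.31%, the highest of the Dnmt1 RIP libraries. Cortex WT m5C RIP then stood level with it at 1.31%, while cortex Het and Hom stood at 2.04% and 1.95%. The fibroblast input went from 0.279% to 0.672%, above the 0.657% of the fibroblast Hom m5C RIP library.

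The 5 copied members supplied a very uneven share of the mitochondrial counts. In the first Dnmt1 RIP library of each genotype they made up 1.20% (WT), 2.22% (Het) and 1.16% (Hom) of the member counts. In the second library of each genotype they made up 11.5%, 11.5% and 11.9%. The 95% exact binomial intervals, which cover counting error only, ran no higher than 2.67% in the first libraries and no lower than 10.4% in the second. Fibroblast m5C RIP libraries had 11.2% and 11.8% (WT), 8.13% (Het) and 13.03% (Hom) and the fibroblast input 10.8%, all above the first Dnmt1 RIP libraries. Cortex m5C RIP libraries had 8.15%, 7.73% and 6.54% in WT, Het and Hom, while the cortex input had 3.01%, between the first Dnmt1 RIP libraries and all other libraries.

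**Figure D2:**
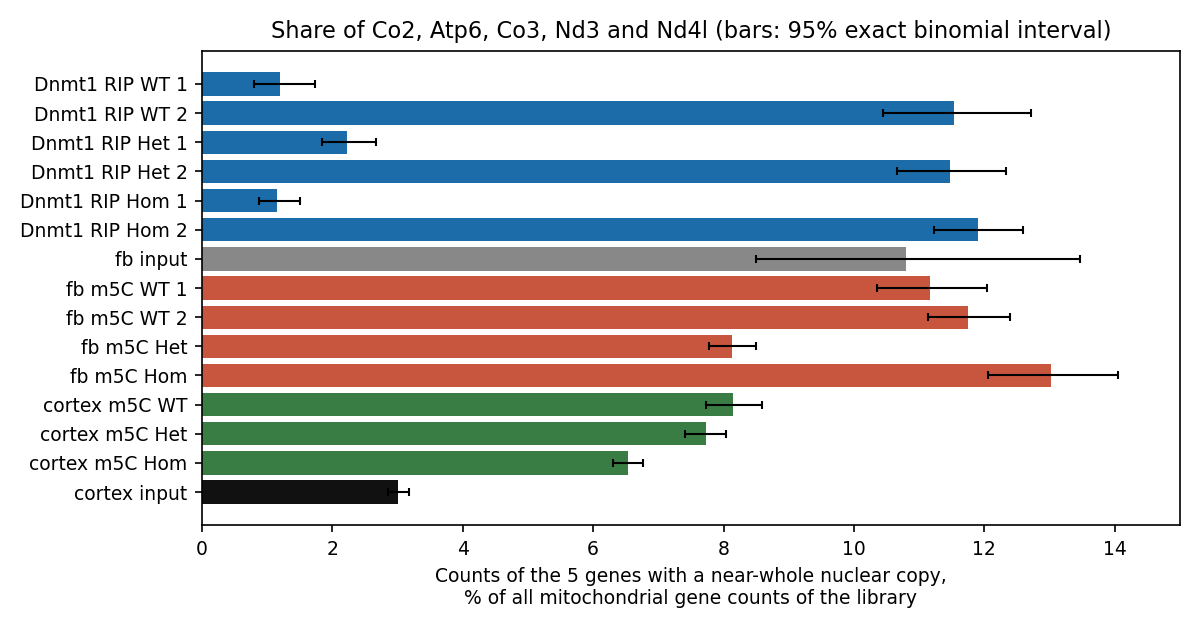
Share of the mitochondrial counts that came from the 5 genes with a nearly complete nuclear copy, in percent, 1 bar per library with its 95% exact binomial interval. The first Dnmt1 RIP libraries (1.16% to 2.22%) and the cortex input (3.01%) lie below the other 11 libraries, which range from 6.54% to 13.03%.

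The split between first and second Dnmt1 RIP libraries ran through single genes. The mt-Co2 gene, which encodes the subunit that receives electrons from cytochrome c, had 36.8 CPM in WT library 1 and 326 CPM in WT library 2. It had 43.0 and 307 CPM in the 2 Het libraries and 14.6 and 289 CPM in the 2 Hom libraries. All 3 second libraries lay above all 3 first libraries, with ratios of second over first of 8.85 in WT, 7.14 in Het and 19.8 in Hom. For mt-Co3, another core subunit of complex IV, the CPM values in libraries 1 and 2 were 27.6 and 199 (WT), 31.9 and 224 (Het), 7.77 and 189 (Hom). For mt-Atp6, the channel subunit through which protons pass in ATP synthase, they were 50.7 and 177, 23.3 and 207, and 8.74 and 182. Both genes again had no overlap, with ratios of 7.004 to 24.4 for mt-Co3 and 3.50 to 20.8 for mt-Atp6.

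The short copied members of complex I had the same order at low counts. The mt-Nd3 counts were 0, 14 and 24 in the WT, Het and Hom first libraries and 24, 28 and 45 in the second, or at most 23.3 CPM against at least 33.0 CPM. The mt-Nd4l counts were 2, 17 and 1 against 10, 41 and 88, or at most 20.9 CPM against at least 21.6 CPM. In CPM all 5 copied members were therefore higher in every second library than in any first library, an order that 13.6% of the 13589 genes tested in the Dnmt1 RIP had. With the 4 dominant genes left out of the totals mt-Nd3 lost this order, at 63.8 CPM in Hom library 1 against 36.9 and 37.8 CPM in Het and Hom library 2. None of the other 8 members had the order in CPM, and 0 members had the opposite order, which 0.486% of genes had. In mt-Nd5, whose product is a proton-pumping subunit of complex I, the second over first ratio was 0.470, 0.945 and 1.03 in WT, Het and Hom, and in mt-Cytb it was 0.506, 0.9502 and 1.06. The labels do not say how the first and second libraries differed, and the cause of the split was not tested. Macrophage markers (7 genes) moved with the same split, at 76.7 to 131 CPM in the first and 363 to 1953 CPM in the second libraries, and their part in it was not tested.

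A fit of second against first Dnmt1 RIP libraries, with genotype as a term, was added after these values had been seen. edgeR called 3 of 12 members higher in the second libraries, against 0.184% of 13589 genes, and 0 lower (0.00736%; 0.191% in all). All 3 were copied members: mt-Co2 at 2.93 ± 0.39 (SE, log2, adjusted p 0.0131), mt-Co3 at 2.90 ± 0.39 (adjusted p 0.0131) and mt-Atp6 at 2.66 ± 0.37 (adjusted p 0.0157). They were 3 of only 25 genes called higher. The copied mt-Nd4l, at 1.95 ± 0.72 (adjusted p 0.684), and mt-Nd3, at 0.71 ± 0.76 (adjusted p 0.958, with log2 fold changes of -0.12 to 1.82 over other settings), did not pass, and without WT library 2 only 1 member passed.

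**Figure D3:**
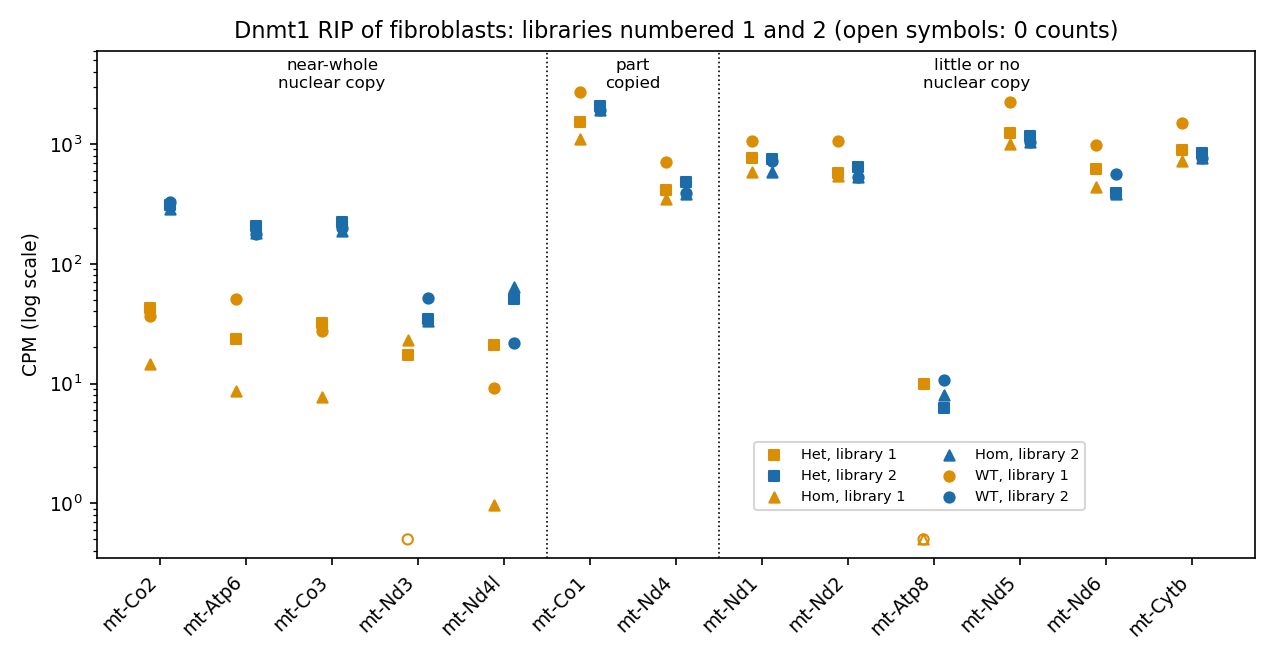
CPM of each member in the first and second Dnmt1 RIP library of WT, Het and Hom fibroblasts (log axis), with colour for library number and symbol for genotype. On this scale the 5 copied members are higher in all second libraries (mt-Co2 at 289 to 326 against 14.6 to 43.0 CPM), though mt-Nd3 is not once the 4 dominant genes are left out of the totals, and the others, such as mt-Nd5, are not.

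Whether the Dnmt1 genotype altered the mitochondrial RNA recovered with Dnmt1 was compared in the 6 Dnmt1 RIP libraries with edgeR's quasi-likelihood test over all genes, calling a gene changed at a Benjamini-Hochberg adjusted p under 0.05. Of the 13 members, 12 passed the filter on low counts (mt-Atp8 did not). None was called between any pair of genotypes, and the background was the same, with 0% of 13589 genes called in each comparison. At an unadjusted p under 0.05 there were 0 members in each comparison, and 868 (Het against WT), 310 (Hom against WT) and 629 (Hom against Het) of all genes. DESeq2 also called 0 members. Fibroblast marker sums were higher in both Het libraries than in the WT and Hom libraries, and their part in these comparisons was not tested.

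The gene levels show how wide the replicate spread was. The CPM of mt-Co1 was 2698 and 1911 for WT, 1512 and 2077 for Het, then 1102 and 1929.9 for Hom, so that the 2 libraries of a genotype were as far apart as the genotypes. The log2 fold changes of mt-Co1 were -0.27 ± 0.61 (SE) in Het and -0.10 ± 0.61 in Hom against WT, with adjusted p of 0.957 and 1.00. The mt-Nd5 CPM values were 2229 and 1047 (WT), 1224 and 1157 (Het), then 999.6 and 1033 (Hom), and those of mt-Nd6 were 985 and 566, 614 and 393, and 435 and 384. In CPM, 4 members (mt-Nd1, mt-Nd4, mt-Nd5 and mt-Nd6) were lower in both Hom than in both WT libraries, beside 19.3% of all genes with that order, and 0 were higher (3.7% of genes). A further order, Hom below Het in both libraries, held for 5 members (mt-Nd1, mt-Nd2, mt-Nd4, mt-Nd5 and mt-Cytb) and 20.1% of all genes, 0 members lay above (3.83% of genes), and no member separated Het from WT, where 15.6% of genes lay lower and 15.3% higher. CPM does not correct for the dominant genes. On the TMM scale of the fit the 12 members had median log2 fold changes of -0.23 in Het and 0.03 in Hom against WT (all genes 0.03 and 0.01), while scaling by total counts alone put the Hom median at -0.58 (all genes -0.37). Most of that move, -0.38, was shared by all genes, and relative to their median the Hom members stood at 0.02 and -0.21 on these scales.

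In the fibroblast m5C RIP, where only WT has 2 libraries and the test has 1 residual degree of freedom, edgeR called 0 of 12 members in Het against WT (0.0326% of 12273 genes were called, 0.00815% higher and 0.0244% lower) and 0 of 12 in Hom against WT (0.00815%). The median log2 fold change was 0.42 in Het, with 9 of 12 members above 0, and -0.29 in Hom, with 2 of 12 above 0. The mt-Nd1 CPM, for the subunit that helps form the quinone-binding site of complex I, was 731 and 1189.9 in WT, 1613 in Het and 840.4 in Hom, so Het was above both WT libraries and Hom between them. The mt-Nd2 CPM was 493 and 765 in WT, 1179 in Het and 479 in Hom. Without WT library 1, and with the spread taken from a joint fit of 10 fibroblast libraries, the medians were 0.26 in Het and -0.54 in Hom.

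Cortex had 1 m5C RIP library per genotype, so the differences there have no replicate check and no test. The WT library had the lowest CPM for all 13 members. The Het over WT ratio was above 1 for all 12 members with at least 50 counts summed over the 2 libraries and over 1.5 for 9 of them, beside 10.5% of genes over 1.5, with a median of 1.69 (all genes 1.04). The Hom over WT ratio was above 1 for all 12 and over 1.5 for 7, beside 9.58% of genes, with a median of 1.54 (all genes 1.03). The largest was mt-Nd4l, a small core subunit of the complex I membrane arm, with 69.4, 204 and 138 CPM for the WT, Het and Hom libraries. Its Het over WT ratio was 2.94 (95% interval from counting error 2.32 to 3.76). The mt-Nd2 CPM of 853, 1702 and 1525 gave a ratio of 1.995 (1.86 to 2.14), and mt-Co1, at 3988, 5469 and 5410.4 CPM, a ratio of 1.37 (1.32 to 1.42). The Hom over Het ratio had a median of 0.931 over 13 members (all genes 0.990). Only mt-Co3 was below the reciprocal of 1.5 (6.4% of genes were), at 377 CPM in Het and 229 CPM in Hom, a ratio of 0.608 (0.539 to 0.686).

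With tissue as a term, all 7 m5C RIP libraries allowed 1 test of genotype over both tissues. edgeR called 0 of 13 members in Het and 0 of 13 in Hom against WT, with 0% of 14193 genes called in each. Het was above WT in 11 of 13 members (median log2 fold change 0.45, all genes -0.05), and 4 members had an unadjusted p under 0.05 (562 of all genes did). These were mt-Nd4l at 1.13 ± 0.35 (SE), mt-Nd2 at 0.78 ± 0.28, mt-Nd4 at 0.62 ± 0.25 and mt-Nd1 at 0.61 ± 0.26, each with an adjusted p of 0.990 by edgeR. The Hom median was 0.15, with 0 members at an unadjusted p under 0.05, and its sign depended on single libraries: it was -0.25 without cortex Hom, -0.13 without cortex WT, 0.38 without fibroblast WT library 2 and 0.55 without fibroblast Hom. Leaving out fibroblast WT library 1 gave medians of 0.44 in Het and 0.09 in Hom. The difference between antibodies in the genotype effect, tested as an interaction in fibroblasts, was called for 0 of 12 members in Het and in Hom. Of all 17124 genes tested, 0 were called in either. This interaction was not fitted without fibroblast m5C RIP WT library 1.

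Between tissues the m5C RIP levels of several members differed by more than the spread of libraries. All 13 members passed the filter, and edgeR with genotype as a term called 6 of them lower in fibroblast than in cortex and 0 higher, against 30.6% of 14193 genes lower, 33.2% higher and 63.8% in either direction. The fold change of mt-Nd4l was the largest in size. Its CPM was 9.23 and 17.9 in WT, 24.96 in Het and 5.51 in Hom fibroblasts and 69.4, 204 and 138 in cortex. The groups did not overlap, and mt-Nd4l fell by 2.84 ± 0.31 (SE) on the log2 scale (adjusted p 1.13e-06).

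The other members called lower were all non-copied or partly copied. The mt-Nd5 CPM was 746, 854, 1050.0 and 703 in WT 1, WT 2, Het and Hom fibroblasts and 2099, 3291 and 3112 in cortex, a log2 fold change of -1.53 ± 0.20 (adjusted p 8.32e-06). The mt-Co1 CPM was 1392, 1648, 2400.4 and 1637 against 3988, 5469 and 5410.4, a change of -1.27 ± 0.19 (adjusted p 2.86e-05). Both genes kept the tissues apart without overlap. The mt-Nd4 change was -1.07 ± 0.21 (adjusted p 0.000496), with 331 to 697 CPM in fibroblasts against 803 to 1328 CPM in cortex, and the mt-Cytb change was -1.04 ± 0.24 (adjusted p 0.00161), with 726 to 1443 against 1629.8 to 2923 CPM. The mt-Nd2 tissues overlapped, at 479 to 1179 against 853 to 1702 CPM, and its change of -0.67 ± 0.25 (adjusted p 0.0273) lost its call without the fibroblast Hom library (-0.30, adjusted p 0.342) or the cortex Hom library (-0.31, adjusted p 0.334). The other 5 calls held in 6 other settings and without each of the 7 libraries in turn.

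The other 7 members did not pass. They were mt-Atp8 (-1.17 ± 0.55, adjusted p 0.0759), mt-Atp6 (-0.40 ± 0.19, adjusted p 0.0827), mt-Nd6 (-0.39 ± 0.28, adjusted p 0.227), mt-Co3 (-0.35 ± 0.20, adjusted p 0.139), mt-Nd1 (-0.25 ± 0.23, adjusted p 0.341), mt-Co2 (-0.19 ± 0.19, adjusted p 0.391) and mt-Nd3 (-0.08 ± 0.25, adjusted p 0.782). Of the 5 copied members only mt-Nd4l was called lower by edgeR. All 13 values were below 0, though mt-Nd1 was above 0 (up to 0.03) without either Hom library and mt-Nd3 (up to 0.27) without either Het library. The median was -0.67, against 0.07 over all genes, and without fibroblast WT library 1 it was -0.64 with 6 members called. Scaled by total counts alone, 9 members were called. Macrophage markers also differed between these sets, at 2606 to 4786 CPM in fibroblasts and 123 to 134 CPM in cortex, and their part in the members' difference was not tested. In CPM, 7 members were lower in every fibroblast than in every cortex library (mt-Co1, mt-Atp8, mt-Atp6, mt-Nd4l, mt-Nd4, mt-Nd5 and mt-Cytb), beside 36.1% of all genes, and 0 were higher in every one (30.4% of genes).

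**Figure D4:**
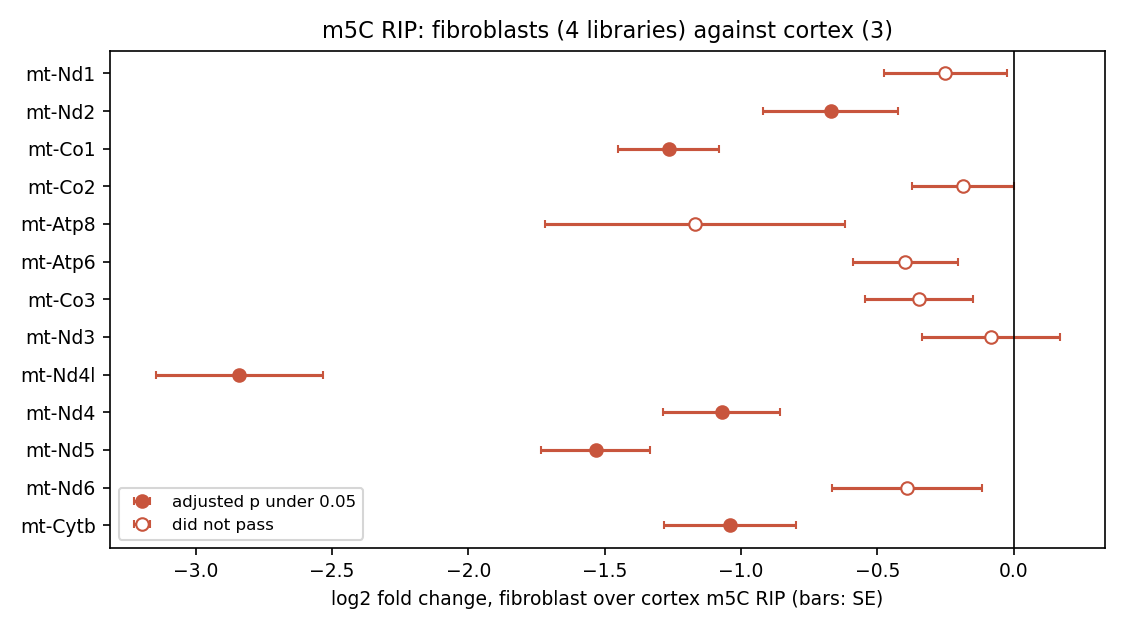
Log2 fold change of each member between fibroblast and cortex m5C RIP (fibroblast minus cortex, edgeR, 4 against 3 libraries), with its standard error and the calls marked. All 13 values are below 0, from -2.84 (mt-Nd4l) to -0.08 (mt-Nd3), though mt-Nd1 and mt-Nd3 change sign in some settings, and 6 passed the test.

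Between the antibodies in fibroblasts a single member passed the test, and it was a copied one. With genotype as a term, edgeR called 1 of 12 members lower in Dnmt1 RIP than in m5C RIP and 0 higher, against 22.7% of 17124 genes lower and 17.5% higher, 40.2% in all (3883 and 2995 genes, or 2158 and 3749 when scaled by total counts alone). The called member was mt-Atp6, with 8.74 to 207 CPM in the 6 Dnmt1 RIP libraries (median 114) and 151 to 259 CPM in the 4 m5C RIP libraries, and it fell by 1.40 ± 0.54 (SE) on the log2 scale (adjusted p 0.0493). Its low values were those of the first Dnmt1 RIP libraries, and the groups overlapped. The call was lost in 3 of 6 other settings and without 7 of the 10 libraries in turn: library 1 of each Dnmt1 RIP genotype or any of the 4 m5C RIP libraries (without m5C RIP WT library 1, -1.52 with an adjusted p of 0.0584). Next in order of adjusted p were mt-Nd3 (-1.07 ± 0.42, adjusted p 0.0541) and mt-Co2 (-1.44 ± 0.59, adjusted p 0.0628). No member separated the antibodies without overlap, where 9.92% of genes lay lower and 13.7% higher in the Dnmt1 RIP. The member median was -0.65 against 0.22 over all genes.

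Against the inputs the m5C RIP values of the members were all higher, without reaching the threshold in the joint test of 9 libraries. edgeR called 0 of 13 members and 0.0552% of 14501 genes, all of them lower. All 13 log2 fold changes were above 0 (median 1.18, all genes 0.27), and 6 members and 788 genes had an unadjusted p under 0.05. The largest was mt-Nd4l at 3.03 ± 0.85 (SE, adjusted p 0.291), followed by mt-Atp8 at 2.46 ± 1.00 and mt-Nd3 at 1.97 ± 0.61 (adjusted p 0.393), and DESeq2 called mt-Nd3 and mt-Nd4l. The result turned on the fibroblast input, a library of 228852 counts. Without it, with the cortex input as the only reference, 4 members rose, and all 4 were copied: mt-Nd4l by 3.22 ± 0.46 (adjusted p 0.00668), mt-Atp6 by 2.32 ± 0.33 (adjusted p 0.00668), mt-Co2 by 1.93 ± 0.31 (adjusted p 0.0158) and mt-Co3 by 1.73 ± 0.32 (adjusted p 0.0477). The fifth copied member, mt-Nd3, had 1.77 ± 0.38 (adjusted p 0.157) and did not pass. In that setting edgeR called 6 of 14413 genes higher (0.0416%), so these 4 members were most of them. Without the cortex input, where 32.5% of 14286 genes were called higher, the calls were other members in part: mt-Co2, mt-Nd1, mt-Nd2, mt-Nd3 and mt-Nd6.

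Within cortex the ratios of m5C RIP over input were higher for the copied members than for the 7 other members with at least 50 counts in each genotype. In WT, 5 of 12 members were over 1.5-fold (7.54% of genes), and these were the 5 copied members at 2.62 to 5.503, while the 7 others stood at 1.11 to 1.48. In Het, 12 of 12 were over 1.5-fold (10.4% of genes), at 4.41 to 16.2 for the copied and 1.75 to 2.87 for the others. In Hom, 12 of 12 were over 1.5-fold (8.16% of genes), at 3.15 to 10.96 and 1.73 to 2.57. The ratios of mt-Atp8, which was under that count limit, were also high. They were 3.33 in WT (95% interval 1.12 to 9.73, 8 against 9 counts), 7.99 in Het (3.51 to 19.8) and 7.03 in Hom (3.27 to 16.8). This gene had no annotated nuclear copy, and an unannotated copy was not looked for. For example, mt-Co2 had 109.7 CPM in the input and 407, 489 and 461 CPM in the WT, Het and Hom m5C RIP, and mt-Co1 had 3132 CPM in the input and 3988, 5469 and 5410.4 CPM. All 3 ratios share 1 input library, whose share of aligned reads reported as not uniquely placed was 7.45%, against 3.18% to 4.66% in the cortex m5C RIP libraries, and the part of this in the ratios was not tested.

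No member passed the test between the Dnmt1 RIP and the fibroblast input. edgeR called 0 of 12 members, against 3.3% of 16558 genes higher and 1.68% lower, 4.99% in all (547 and 279 genes, or 1124 and 59 with total counts alone), and 0 had an unadjusted p under 0.05 (4953 genes did). The member log2 fold changes ran from -1.19 ± 1.02 (SE) for mt-Atp6 to 1.72 ± 1.79 for mt-Nd3, with a median of 0.53, while the median over all genes was 5.39. Scaled by total counts alone, the member median was 1.46. The input had counts in 6006 genes, among them all members except mt-Atp8. Most of the 16558 genes tested thus had no count in it. The all-gene median of 5.39 rests on such genes, so its distance from the member median does not measure depletion of the members. With 96 counts, mt-Nd5 had 419 CPM in the input and 999.6 to 2229 CPM in the Dnmt1 RIP.

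The ratio of mt-Nd6, the only minus-strand member, to its neighbour mt-Nd5 was higher in the fibroblast m5C RIP than in the other libraries. A move of either gene changes this ratio. Between tissues in m5C RIP, mt-Nd5 changed by -1.53 ± 0.20 (SE, log2) and mt-Nd6 by -0.39 ± 0.28. Between antibodies (Dnmt1 RIP over m5C RIP in fibroblasts), mt-Nd5 changed by 0.31 ± 0.37 and mt-Nd6 by -0.89 ± 0.38. Divided by length, mt-Nd6 over mt-Nd5 was 2.84 and 5.25 in WT, 3.28 in Het and 3.27 in Hom fibroblast m5C RIP. It was 1.55 and 1.90 (WT), 1.76 and 1.19 (Het), then 1.53 and 1.31 (Hom) in Dnmt1 RIP, and 1.47, 1.68 and 1.72 in WT, Het and Hom cortex m5C RIP. The inputs stood at 1.098 (fibroblast) and 1.43 (cortex). All 4 fibroblast m5C RIP libraries were thus above the other 11. The counts of WT library 1 that remained after the Hom counts were subtracted had a ratio of 1.85, within the range of the other 11, so its own value is not independent of the Hom library. The ratio was chosen after its values were seen, so no test is given. Plus-strand mt-Nd1 also stood above mt-Nd5 in fibroblast m5C RIP, at 764 to 1685 against 385 to 576 CPM per kb. In cortex m5C RIP the ranges were 1108 to 1883 (mt-Nd1) and 1151 to 1804 (mt-Nd5). A higher level relative to mt-Nd5 was therefore not particular to mt-Nd6 or to its strand. The counting is not stated to use strand, so reads of mt-Nd6 and of RNA from the opposite strand of the same locus cannot be told apart.

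**Figure D5:**
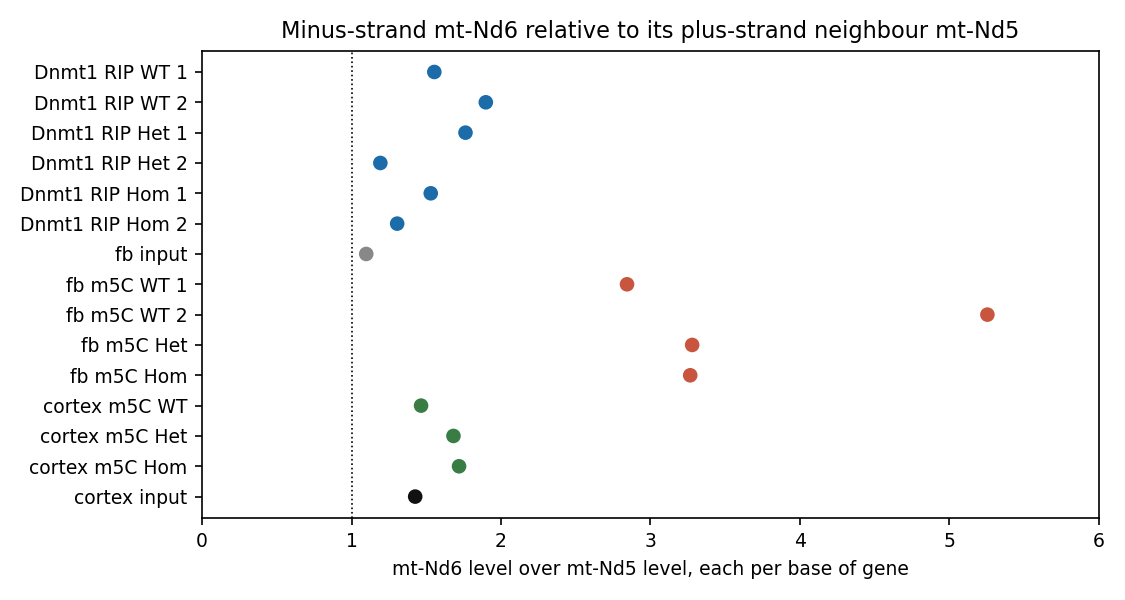
Ratio of mt-Nd6 to mt-Nd5, each as CPM per kb, 1 point per library by antibody and tissue (fb, fibroblast). The 4 fibroblast m5C RIP libraries lie at 2.84 to 5.25 and the other 11 at 1.098 to 1.90.

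Nuclear genes that serve the same complexes were mostly called higher in fibroblasts and lower in the Dnmt1 RIP. Of 28 nuclear-encoded subunits of complexes I, III, IV and ATP synthase, edgeR called 16 higher and 5 lower in fibroblast than in cortex m5C RIP. Of all genes, 33.2% were higher and 30.6% lower (median log2 fold change of the list 0.65, all genes 0.07). Among the subunits called were Atp5e at 3.16 ± 0.21 (SE), Cox5a at 2.14, Atp5d at 1.76 and Atp5o at 1.55. The mitochondrially encoded subunits of these complexes had 0 higher and 6 lower. Between antibodies in fibroblasts, 22 of the 28 were lower and 0 higher in Dnmt1 RIP, where 22.7% of all genes were lower and 17.5% higher (median -1.34, all genes 0.22), with Cox5a, a regulatory subunit of complex IV, at -2.13 ± 0.25, Cox6c at -1.99, Ndufv2 at -1.69 and Cox7a2 at -1.58, where 1 of 12 members was lower. Whether the 2 sets of genes differ was not tested.

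In the remaining lists the shares called were mostly near or under those of all genes, 33.2% higher and 30.6% lower between tissues and 22.7% lower and 17.5% higher between antibodies, and nothing particular to them is read from the counts. Enzymes that modify mitochondrial RNA are encoded in the nucleus, and 24 of the 25 listed were rows of the tables. Of these, 6 were called higher in the fibroblast libraries than in the cortex libraries, among them Rpusd4 (2.26) and Pus1 (1.63), which make pseudouridine, Qtrt1 (1.18), part of the queuosine-inserting enzyme, and the m5C methyltransferase Nsun2 (0.84). In Dnmt1 RIP against m5C RIP, 4 were lower: Yrdc (-2.05), Pus1 (-1.60), Trmt2b (-1.55) and Nsun2 (-1.47). Of the genes for mitochondrial RNA processing, stability and decay, 4 were higher and 1 lower of 17 tested between tissues, with the oligonucleotide nuclease Rexo2 at 1.91, the tRNA-processing subunit Hsd17b10 at 1.30, Tbrg4 at 1.22 and the tRNA 3′ nuclease Elac2 at -0.89. For mitochondrial transcription and genome maintenance, 1 was higher (the single-stranded DNA binding protein gene Ssbp1, 1.20) and 2 were lower (the polymerases Polrmt, -0.72, and Polg, -0.78) of 13 tested. No gene of these lists was called in any genotype comparison by edgeR. Of 19 genes listed as RNAs without a poly(A) tail, a label not checked in these data, 8 were rows. Of 6 tested, 3 were higher and 2 lower in fibroblast m5C RIP. Among them were the histone genes Hist1h1c at 3.71, Hist1h2bc at 3.31, Hist1h4h at -1.78 and Hist1h1e at -1.62.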

How the data were processed

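The values used are the deposited counts of reads per gene, 1 table per library; per the submitters' processing notes the authors trimmed reads with Trim Galore 0.4.1, aligned them to mm10 with HISAT2 and counted them with featureCounts. The sources used here do not give the annotation, the strand setting or how reads with several matches were treated. Only 6 tables list reads not uniquely placed, as an entry outside the genes. They are those of fibroblast m5C RIP Het and Hom, all cortex m5C RIP and the cortex input. Members are the rows whose symbol starts with mt-, and members and gene lists were chosen with earlier results of these data known. Rows that name no gene, present in 6 tables, were left out of library sizes; there 3.79% to 10.1% of entries fell in genes and 63.2% to 89.5% were not aligned. CPM divides a count by the library's total in genes. Tests were edgeR 4.0.16 quasi-likelihood fits (TMM factors, filterByExpr with a minimum count of 10 and total of 15) on all genes, Benjamini-Hochberg adjusted at 0.05, in R 4.3.3, and were checked on simulated data; SE is the fold change over the root of F. DESeq2 1.42.0, RLE factors, total counts, no filter, removal of the 4 dominant genes and leaving out each library were alternatives. Intervals are exact Poisson or binomial at 95% and cover counting error only. Sequences and coordinates are from GENCODE M21. Any member could be named; from each gene list, up to 4 genes with the smallest p in a comparison.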

Additional observations from a re-analysis of the deposited data

Results flagged for a closer look

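For 5 members the ratio of 1 mutant genotype to WT in the m5C RIP lay on opposite sides of 1 in the tissues. It was below 1 over both fibroblast WT libraries and above 1 in cortex (Hom for 4 members, Het for mt-Nd3). The difference between tissues was not tested. How many of all genes had such an order was not counted, so nothing particular to the members is read from it. The single mutant library was set against both fibroblast WT libraries and against the single cortex WT library, as CPM ratios. For Hom over WT, mt-Nd4l had ratios of 0.597 and 0.307 over fibroblast WT libraries 1 and 2 and 1.99 in cortex. In the same order, mt-Nd2 had 0.972, 0.626 and 1.79, mt-Nd4 had 0.975, 0.711 and 1.51, and mt-Nd5 had 0.942, 0.823 and 1.48. For Het over WT, mt-Nd3, a copied member, had 0.765 and 0.606 in fibroblasts and 1.68 in cortex. The fibroblast Hom value of mt-Nd4l rests on 4 counts. The fibroblast WT library 1 holds at least the Hom counts in every gene, so its ratios with Hom are not those of separate libraries.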

How the results depend on the processing

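The tissue comparison of m5C RIP kept 5 to 9 members lower in fibroblasts over all settings, where 3518 to 4856 of all genes were lower. The 9 members and the 4856 genes were both with total counts alone. In Dnmt1 RIP against m5C RIP the 1 member called lower became 0 with RLE factors, 0 with total counts alone and 0 with DESeq2. It became 6 with no filter on low counts, 3 without the 4 dominant genes, and 0 to 3 with 1 library left out. Over all genes, the number called lower ran from 2158 (total counts alone) to 4260 (no filter), against 3883 in the main fit. In m5C RIP against input the 0 members called higher became 2 with DESeq2 and 0 to 5 with 1 library left out (4 without the fibroblast input, 5 without the cortex input). The second against first Dnmt1 RIP libraries had 1 to 4 members higher with 1 library left out, beside 21 to 306 of all genes. Total counts alone shifted the median of all genes by -0.38 in Hom against WT Dnmt1 RIP, 0.34 in Dnmt1 RIP against m5C RIP, 0.27 in m5C RIP against input, -0.16 between tissues and 0.503 in second against first Dnmt1 RIP libraries, where the member median went from -0.40 to 0.05. The replicate block, which pairs Dnmt1 RIP libraries by number, called 0 members in the 3 genotype comparisons, with medians of -0.18 (Het against WT), -0.06 (Hom against WT) and 0.16 (Hom against Het). Deviations of same-numbered libraries correlated at -0.006, 0.202 and 0.0589 over genes, of which only 1 is above 0.1, so the numbers were not taken as pairing the libraries; single genes, the copied members among them, did differ by number. The planned removal of ribosomal RNA members was not run, because the members hold none. Depth limits mt-Atp8 everywhere and mt-Nd3 and mt-Nd4l in the first Dnmt1 RIP libraries and the fibroblast input. Over all genes, edgeR's 0 calls between Dnmt1 RIP genotypes became, with no filter, 179 higher and 13 lower (Het against WT), 1 and 12 (Hom against WT) and 3 and 110 (Hom against Het), and with DESeq2 26 higher in Het against WT and 15 lower in Hom against Het. In m5C RIP against input the 8 genes called lower became 170 with DESeq2 (15 higher), 206 with no filter, 37 with RLE factors and 2 with total counts alone. In Dnmt1 RIP against input DESeq2 called 119 genes higher and 146 lower, no filter gave 1353 and 591, and 0 genes were called without WT library 1, Hom library 1 or Hom library 2. In fibroblast m5C RIP DESeq2 called 0 genes in Het and in Hom. Second against first Dnmt1 RIP libraries had 78 genes higher with DESeq2 and 58 with total counts alone.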

Other observations

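Subtracting the Hom counts from fibroblast m5C RIP WT library 1 left 249780 counts, of which 1024 (0.410%) were in the members. Copied members held 31 of these, or 3.03% of the member counts left, against 13.03% in the Hom library. In the same remainder mt-Nd6 over mt-Nd5 per length was 1.85, against 3.27 in the Hom library and 1.098 to 1.90 in the 11 libraries outside fibroblast m5C RIP.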
